A study of Sus scrofa with 12 samples.

Results

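NF-κB and innate immune signalling was examined by RNA sequencing in AOC, an endothelial cell line of the pig, and at 3 stages of turning porcine iPS cells into endothelial cells, on day 2 (IEC2), day 4 (IEC4) and day 12 (IEC12). The genes were a list of 46 receptors, adaptors, kinases, NF-κB subunits, inhibitors and targets, and 43 of them were found by symbol among 19681 Ensembl pig genes, of which 13998 had a symbol. TRAF2, TRAF3 and BIRC2 were not matched. Each of the 4 groups had 3 libraries, named here A, B and C after the sample titles, and values are given in that order. The IEC cells came from porcine iPS cells that received the GSK3β inhibitor CHIR99021 for the first 2 days, then BMP4, FGF2 and VEGF up to day 4, then endothelial growth medium with VEGF. The IEC cells were not sorted. AOC is a single line, labelled "final" in place of a day. The study calls the 3 libraries of a group biological replicates, and p-values measure the spread between these libraries.

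NF-κB is a family of dimeric transcription factors that IκB proteins hold in the cytoplasm. Toll-like receptors, which sense microbial products, and receptors of the TNF and IL-1 families pass their signal through adaptors and ubiquitin ligases to the IKK kinase complex, which marks IκB for destruction and so releases NF-κB to the nucleus. In endothelial cells this route is known for switching on chemokines, cytokines and adhesion molecules during inflammation, together with the IκB genes that end the signal. The RNA level of a member does not show whether its protein was active, and protein was not measured in these libraries.

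Levels were deposited as FPKM (fragments divided by transcript length and by the size of the library). Differences were tested with limma on log2(FPKM + 1), where changes of weakly expressed genes appear smaller than they are, and a gene passed the test at a Benjamini-Hochberg adjusted p under 0.05 over all genes tested. The number of reads is unknown, so no counting interval can be given. Between 8357 and 10467 genes per library reached 1 FPKM. Mitochondrial transcripts (12 genes) made up 1.95 to 2.19% of all FPKM on day 2, 4.28 to 7.1% on day 4 and 7.77 to 15% on day 12, with 5.65 to 7.05% for AOC. PECAM1 and CDH5, which define endothelial cells, stood at 91.7 to 131 and at 103 to 137 FPKM in AOC. In IEC12, PECAM1 reached at most 0.105 FPKM, and CDH5 was listed at 0 in all 9 IEC libraries. The 8 endothelial markers found, of 10 listed, summed to 255 to 344 FPKM in AOC, against 3.23 to 5.25 on day 2, 1.74 to 2.05 on day 4 and 0.293 to 0.515 on day 12. The IEC libraries are thus named by their labels here, not as endothelial cells. Of the endothelial markers found, KDR alone had a higher mean in IEC2 (2.95 FPKM) than in AOC (1.36). The 7 epithelial markers found, of 8 listed, summed to 329, 478 and 895 FPKM in IEC4, against 22.7 to 31.4 in IEC2, 5.17 to 16.6 in IEC12 and at most 0.143 in AOC. KRT8 made up most of the IEC4 sum (300, 435 and 748 FPKM). ESRP1 was not higher in IEC4 than in IEC2 (means 8.37 and 10.1 FPKM), and CLDN7 did not exceed 0.0966 in any library. The 8 leukocyte markers found, of 10 listed, summed to 7.61 to 8.34 FPKM in AOC, 7.68 to 12.1 on day 2, 9.4 to 14.8 on day 4 and 4.76 to 6.66 on day 12. Single leukocyte markers moved apart. The pan-leukocyte gene PTPRC was listed at 0 in AOC and had means of 0.0165 FPKM in IEC2, 2.78 in IEC4 and 1.37 in IEC12, with a log2 change of 1.88 ± 0.18 from IEC2 to IEC4 (adjusted p = 6.08e-05). The macrophage gene AIF1 also rose from IEC2 to IEC4 (means 1.73 and 5.84 FPKM, 1.30 ± 0.26, adjusted p = 0.00399), the myeloid factor SPI1 fell (means 6.87 and 1.57 FPKM, -1.60 ± 0.24, adjusted p = 0.000729), and the monocyte receptor gene CSF1R did not exceed 0.0147 FPKM in any library. The 8 mesenchymal and mural markers summed to 18.5 to 30.1 FPKM in AOC, 6.58 to 19.3 on day 2, 5.06 to 20.3 on day 4 and 2.85 to 5.06 on day 12. Of 8 pluripotent markers listed, only NANOG and LIN28A were found. These 2 summed to 0 to 0.155 FPKM on day 2, 3.3 to 6.39 on day 4, 0.248 to 1.52 on day 12 and at most 0.0462 in AOC. LIN28A was listed at 0 in the IEC2 libraries and had a mean of 4.27 FPKM in IEC4. It reached the minimum for testing (1 FPKM in 3 libraries) only through IEC4, so that its test carries no weight of its own. The part of these cell types in the results below was not tested, and in bulk samples fewer cells of a type and less RNA per cell cannot be told apart.

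**Figure D1:**
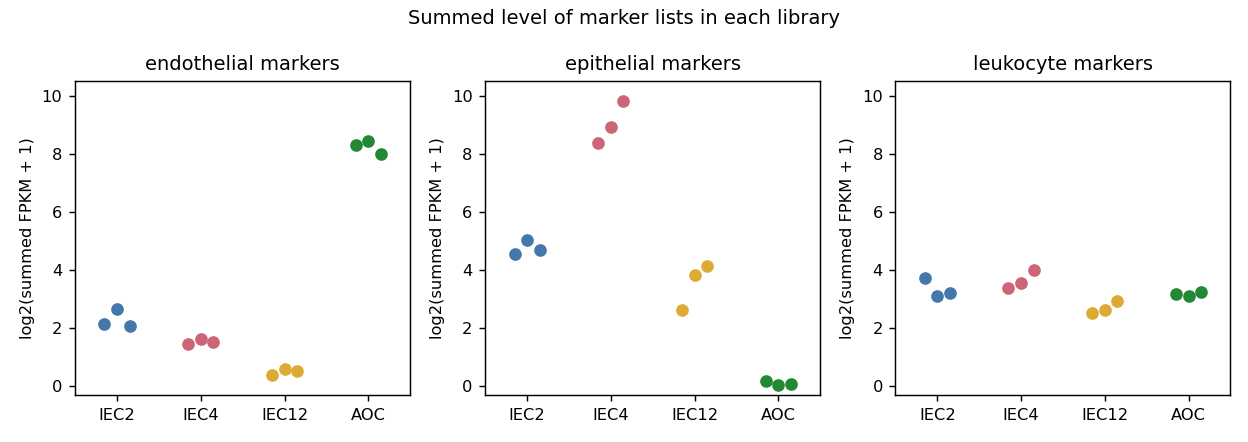
Summed FPKM of the endothelial, epithelial and leukocyte marker lists on a log2(sum + 1) axis, with 1 dot for each of the 12 libraries and replicates A, B and C from left to right in each group. The endothelial sum is highest in AOC (255 to 344 FPKM), the epithelial sum is highest in IEC4 (329 to 895 FPKM), and the leukocyte sum lies between 4.76 and 14.8 FPKM in all libraries. Single markers of a list can differ from its sum.

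The mean FPKM was highest in AOC for 22 of the 43 members, in IEC4 for 11, in IEC2 for 6 and in IEC12 for 4. Of the 11053 genes tested in all 12 libraries, 23.8% were highest in AOC, 33.7% in IEC4, 20.9% in IEC2 and 21.6% in IEC12. The mean was lowest in IEC12 for 18 members, in IEC2 for 14, in AOC for 7 and in IEC4 for 4, against 16.5%, 25.1%, 46.1% and 12.2% of those genes. The 2 sets are unlike, since these shares leave out genes too low to be tested. The members include 5 such genes, TLR2, TNFRSF11A, IRAK1, RIPK1 and RELB, and all 5 had their highest mean in AOC. The FPKM of all genes summed to 426839 to 441757 in AOC, 387726 to 457194 on day 12, 348674 to 379368 on day 4 and 335976 to 352845 on day 2. CCL2, a chemokine that attracts monocytes, was the most abundant member in AOC (mean 601 FPKM), IEC2 (203) and IEC4 (138), whereas NFKBIA, the gene of IκBα, led in IEC12 (50.1). CCL2 took 55 to 66.1% of the summed FPKM of the members in AOC and 0.668 to 1.1% in IEC12. Without CCL2 the sums were 178.5 to 210.3 FPKM on day 2, 240.4 to 313.5 on day 4, 176.1 to 245.9 on day 12 and 369.5 to 426.4 for AOC. The kinase gene IRAK4 stood among the 3 most abundant members of each group. In contrast, TNFRSF11A, IRAK1, RIPK1 and RELB stayed under 1 FPKM in every library.

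**Figure D2:**
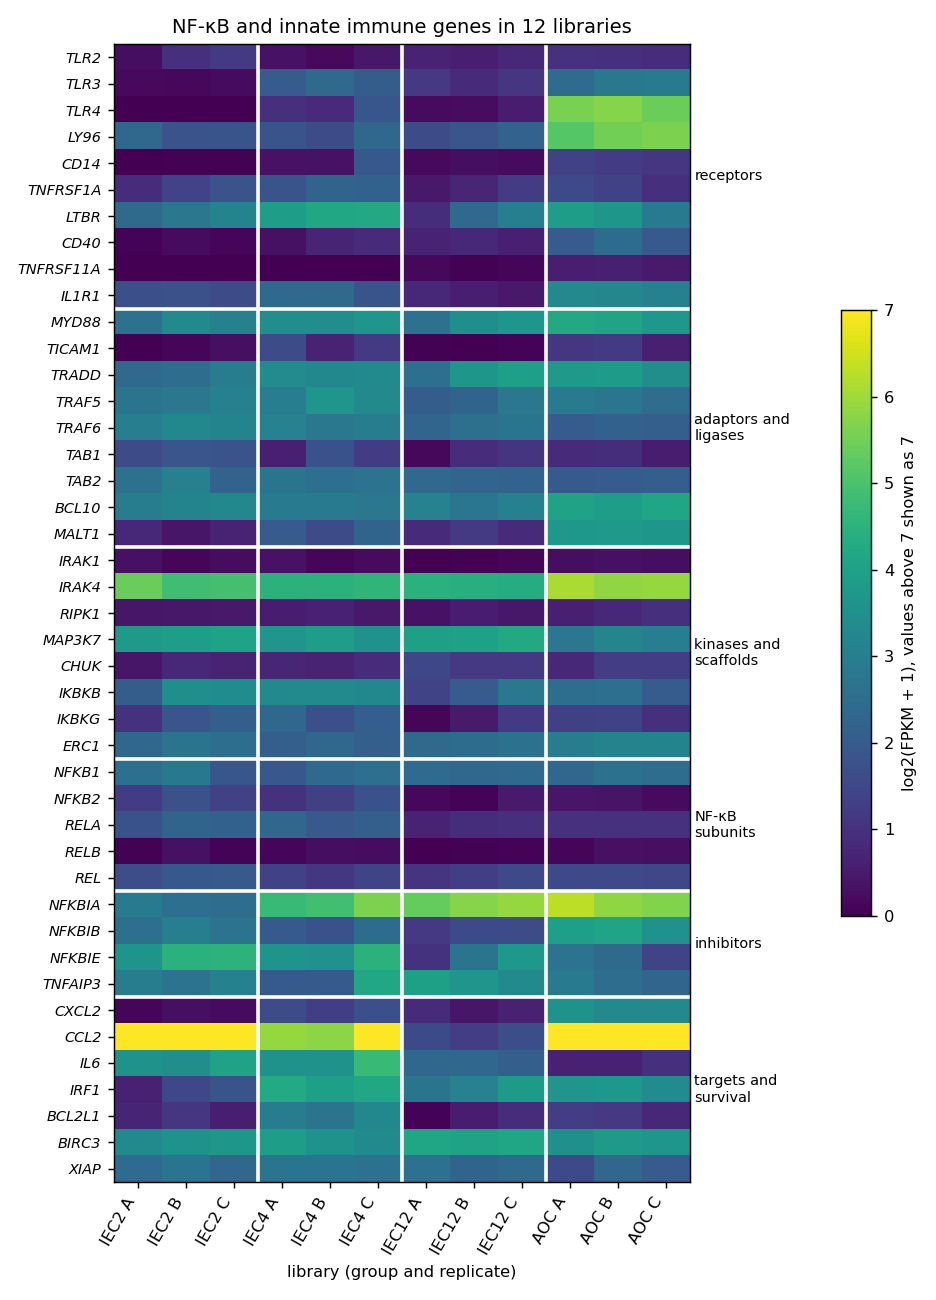
Levels of the 43 members (rows, grouped by role) in the 12 libraries (columns), as log2(FPKM + 1) from dark (0) to yellow (7 or more). TLR4 and LY96 are bright in AOC alone, NFKBIA is dark in IEC2 and bright in the other 3 groups, and CCL2 loses its brightness in IEC12.

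From day 2 to day 4, the inhibitor gene NFKBIA and the transcription factor gene IRF1 rose, to mean levels 6.42 and 10.2 times those of IEC2. In IEC4 against IEC2, 7 members were higher (TLR3, LTBR, MALT1, NFKBIA, CXCL2, IRF1 and BCL2L1), 3 were lower (IRAK4, REL and NFKBIB), 24 did not pass the test and 9 were not tested because their FPKM was too low. Of all 10542 genes tested in the 9 IEC libraries, 24.8% were higher and 12.5% were lower. The median log2 fold change was 0.11 over the members tested and 0.20 over all genes. TLR3, MALT1, CXCL2 and BCL2L1 reached the minimum for testing only through IEC4, the group in which they are high, and CHUK only through IEC12. A count that holds such genes carries no weight of its own. Without these 5 members 3 were higher and 3 lower of 29 tested, with a median of 0.02. Without IEC4 replicate A, or without replicate B, 5 members passed, all higher.

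From day 4 to day 12, CCL2, LTBR, IL6 and IL1R1 were lower, with log2 fold changes of -5.14, -1.99, -1.70 and -1.59. In IEC12 against IEC4, 15 members were lower (TLR3, TNFRSF1A, LTBR, IL1R1, TRAF5, MALT1, IKBKB, IKBKG, NFKB2, RELA, CXCL2, CCL2, IL6, IRF1 and BCL2L1), 2 were higher (CHUK and BIRC3), 17 did not pass and 9 were not tested. Over all genes tested, 26.9% were lower and 17.3% were higher. The median log2 fold change was -0.57 over the members tested and -0.15 over all genes. Of these calls, TLR3, MALT1, CXCL2 and BCL2L1 entered the fit only through IEC4 and CHUK only through IEC12. Without these 5 members, 11 were lower and 1 was higher of 29 tested, with a median of -0.42.

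Over the whole interval, IEC12 against IEC2, NFKBIA and IRF1 stayed raised while CCL2, IL6, RELA and NFKB2 were reduced. In this comparison 12 members were lower (IL1R1, TRAF6, TAB1, IRAK4, IKBKG, NFKB2, RELA, REL, NFKBIB, NFKBIE, CCL2 and IL6), 5 were higher (TLR3, CHUK, NFKBIA, IRF1 and BIRC3), 17 did not pass and 9 were not tested. Over all genes tested, 19.3% were lower and 24.2% were higher. The median log2 fold change was -0.31 over the members tested and 0.03 over all genes. Without the 5 members that entered the fit through a single group, 12 were lower and 3 higher of 29 tested, with a median of -0.55. The count fell from 17 to 11 without IEC2 replicate B, without IEC12 replicate A or without IEC12 replicate B. The 3 comparisons between stages share libraries and are not independent of each other.

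AOC stood above IEC12 most in the chemokine gene CCL2, the lipopolysaccharide receptor genes TLR4 and LY96, and the adaptor gene MALT1, and it stood below IEC12 most in the cytokine gene IL6. In AOC against IEC12, fitted on all 12 libraries, 16 members were higher (TLR3, TLR4, LY96, CD14, LTBR, CD40, IL1R1, MYD88, TICAM1, BCL10, MALT1, IRAK4, ERC1, NFKBIB, CXCL2 and CCL2), 4 were lower (TRAF6, MAP3K7, IL6 and BIRC3), 18 did not pass and 5 were not tested. Over the 11053 genes tested, 22.4% were higher and 36.2% were lower. The median log2 fold change was 0.43 over the members tested and -0.21 over all genes. TLR4, CD14 and CD40 reached the minimum for testing only through AOC, CHUK only through IEC12, and TICAM1 only with both IEC4 and AOC. Without these 5 members, 12 were higher and 4 lower of 33 tested, with a median of 0.33. Of the 38 members tested, 13 lay above all 9 IEC libraries in each AOC library and 4 lay below them (IL6, MAP3K7, TAB2 and TRAF6), against 15.6% and 25.7% of all genes tested. The 13 include TLR4 and CD40, which entered the fit only through AOC, so that this count carries no weight of its own. AOC and the IEC cells also differ in origin and culture, which cannot be told apart here from differentiation.

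The deposited FPKM values carry shifts common to many genes. Median-of-ratios scaling moved the median log2 fold change of all genes from 0.20 to -0.01 in IEC4 against IEC2, from -0.15 to 0.04 in IEC12 against IEC4, and from -0.21 to -0.01 in AOC against IEC12. With this scaling 6 members were higher and 5 lower in IEC4 against IEC2, 5 higher and 14 lower in IEC12 against IEC4, and 21 higher and 2 lower in AOC against IEC12. With libraries brought to equal totals, no member was higher and 17 were lower in IEC12 against IEC4. No member that passed the test reversed its direction under either scaling, but some calls were lost. Median-of-ratios scaling lost LTBR in IEC4 against IEC2 (adjusted p = 0.0521) and IRF1 in IEC12 against IEC4 (0.0688). It also lost TRAF6 (0.242) and BIRC3 (0.38) in AOC against IEC12. Equal totals lost LTBR in IEC4 against IEC2 (0.0616), and CHUK (0.103) and BIRC3 (0.274) in IEC12 against IEC4. They also lost BIRC3 in IEC12 against IEC2 (0.283) and MYD88 in AOC against IEC12 (0.0643).

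**Figure D3:**
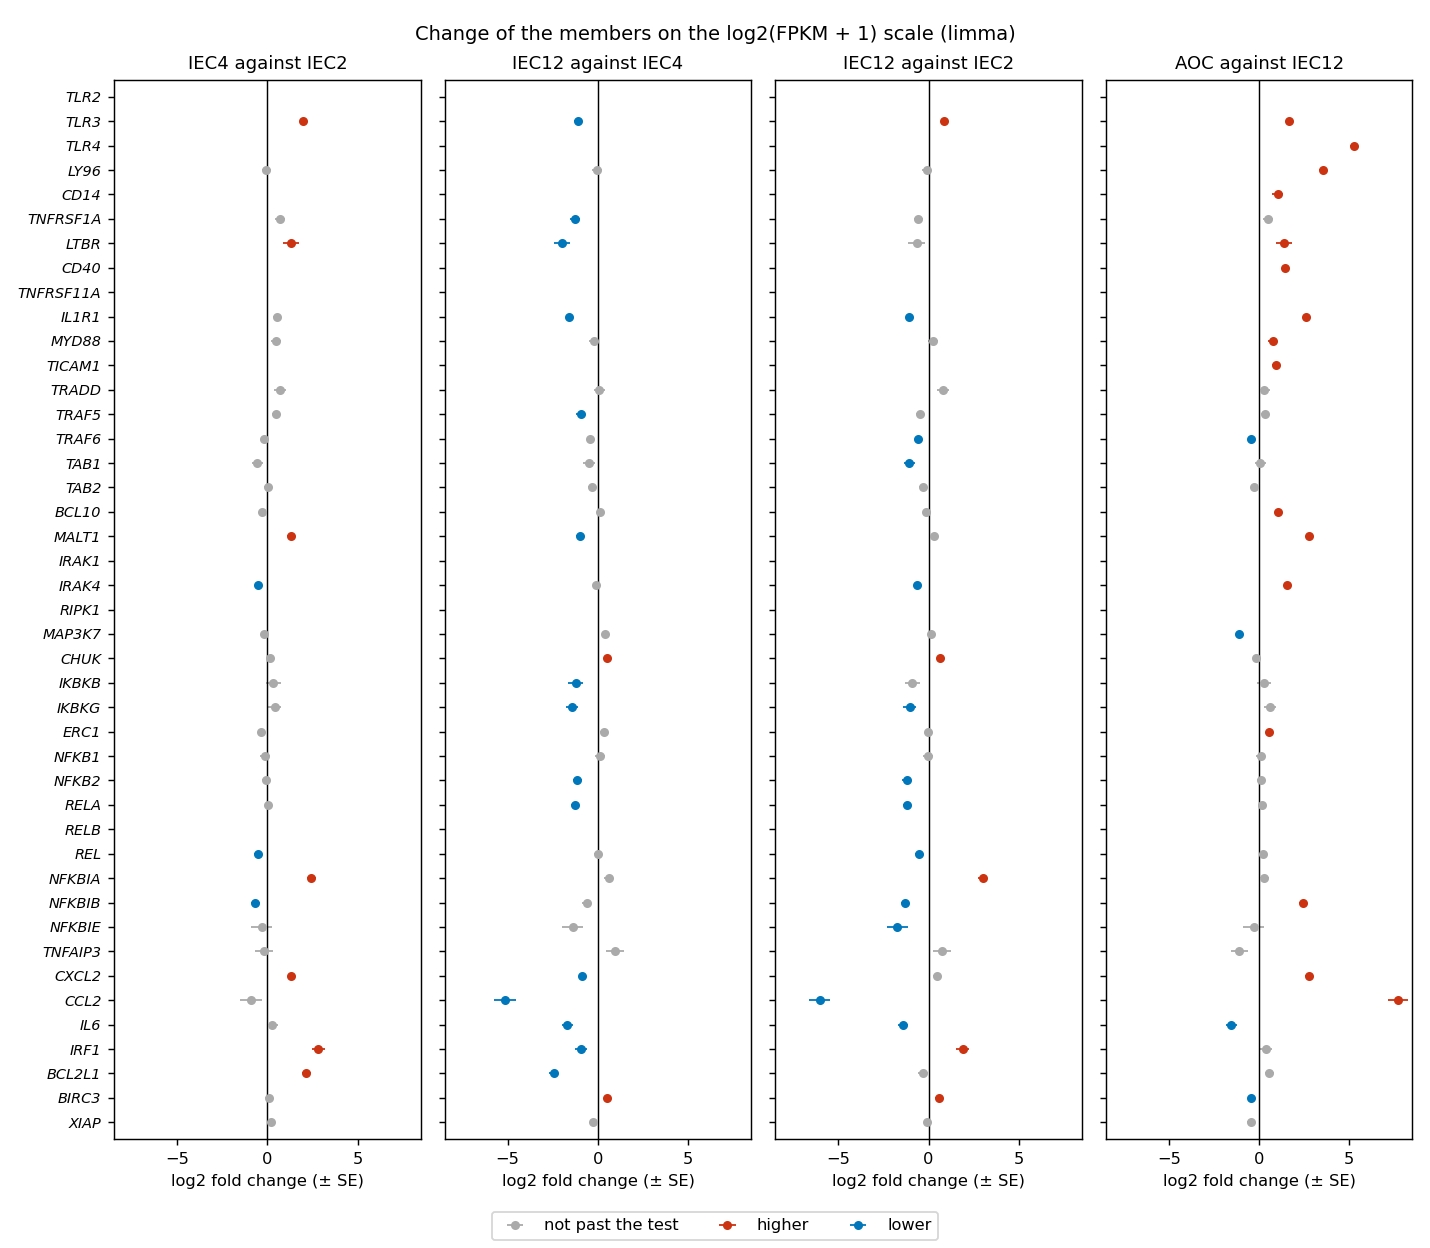
Log2 fold change ± SE of each member tested in the 4 comparisons, on the log2(FPKM + 1) scale, with members in the order of their roles. Red and blue dots passed the test (7 higher and 3 lower, 2 and 15, 5 and 12, 16 and 4, from left to right), grey dots did not, and CCL2 shows the extremes at -6.04 and 7.72.

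Of the receptors, TLR4, CD14 and CD40 entered the fit with AOC only through AOC. Of the 5 other receptors tested, 4 were higher and none was lower in AOC than in IEC12 (22.4% and 36.2% of all genes), with a median log2 fold change of 1.68 against -0.21 over all genes. Between stages, TLR3 entered the fit only through IEC4, and of the 4 other receptors tested, 1 was higher in IEC4 than in IEC2 (24.8% of all genes) and 3 were lower in IEC12 than in IEC4 (26.9% of all genes). TLR4, the receptor for bacterial lipopolysaccharide (ENSSSCG00000005503, chromosome 1, 258044610 to 258054641 on Sscrofa11.1), stood at 46.9, 51.6 and 42.3 FPKM in AOC. It was listed at 0 in the 3 IEC2 libraries and measured 0.917, 0.782 and 2.65 in IEC4 and 0.147, 0.177 and 0.439 in IEC12. Without the filter on low values, TLR4 passed as higher in IEC4 than in IEC2 (adjusted p = 0.0118, with no fold given against values of 0) and was lower in IEC12 than in IEC4 by 0.89 (SE 0.25, adjusted p = 0.0345). The AOC libraries thus lay far above the others, at a log2 difference of 5.26 ± 0.24 (SE) from IEC12 (adjusted p = 6.15e-09). LY96, which encodes the MD-2 subunit that lets TLR4 bind lipopolysaccharide (chromosome 4, 61919806 to 61950712), stood at 34.3, 44.9 and 48.5 FPKM in AOC. Its IEC values were 4.18, 2.45 and 2.54 on day 2, 2.52, 2.09 and 4.17 on day 4, and 2.11, 2.59 and 3.57 on day 12. No stage of induction stood apart, and the AOC mean was 15.4 times that of IEC12 (log2 difference 3.54 ± 0.24, adjusted p = 1.95e-07). CD14, which hands lipopolysaccharide to TLR4 and MD-2, reached 1.55, 1.38 and 1.14 FPKM in AOC against 0.13, 0.193 and 0.154 in IEC12 (1.02 ± 0.33, adjusted p = 0.0191). In IEC2 it was at 0, 0.0229 and 0.0348, and in IEC4 at 0.262, 0.278 and 2.79, so that IEC4 replicate C exceeded the AOC libraries. The CD14 difference did not pass without AOC replicate A (adjusted p = 0.0598) or replicate B (0.0503).

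TLR3 senses double-stranded RNA (chromosome 15, 46966262 to 46977774) and was measured at 0.134, 0.112 and 0.145 FPKM in IEC2, 3.06, 4.36 and 3.18 in IEC4, 1.22, 0.821 and 1.15 in IEC12, and 4.5, 5.97 and 6.46 in AOC. The 4 groups did not overlap, in the order IEC2, IEC12, IEC4 and AOC. It rose by 1.99 ± 0.17 from IEC2 to IEC4 (adjusted p = 3.53e-05), fell by 1.13 to IEC12 (adjusted p = 0.000949) and was 1.68 ± 0.17 higher in AOC than in IEC12 (adjusted p = 4.78e-06). TLR2, which recognises bacterial lipoproteins, stayed between 0.129 and 1.28 FPKM and was not tested.

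IL1R1, the IL-1 receptor, was measured at 2.24, 2.32 and 2.09 FPKM in IEC2, 4.22, 4.33 and 2.52 in IEC4, 0.701, 0.509 and 0.397 in IEC12 and 8.79, 8.46 and 7.48 in AOC. All IEC12 values lay below, and all AOC values above, those of the other groups. The log2 changes were -1.59 ± 0.20 from IEC4 to IEC12 (adjusted p = 0.000324) and 2.59 ± 0.18 between IEC12 and AOC (adjusted p = 1.92e-07). CD40, a co-stimulatory receptor of the TNF family, reached 3.02, 4.59 and 2.9 FPKM in AOC. It was at 0.045, 0.158 and 0.0653 in IEC2, 0.253, 0.645 and 0.83 in IEC4 and 0.617, 0.713 and 0.541 in IEC12. AOC was higher than IEC12 by 1.45 ± 0.18 (adjusted p = 2.45e-05), and without the filter on low values IEC4 was above IEC2 by 0.52 ± 0.14 (adjusted p = 0.0299). TNFRSF11A, which encodes the receptor RANK, was listed at 0 in IEC2 and IEC4 and reached at most 0.117 in IEC12 and 0.528 in AOC.

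LTBR, the lymphotoxin β receptor, was measured at 4.33, 5.83 and 7.97 FPKM in IEC2, 14.1, 17.2 and 17.7 in IEC4, 0.888, 4.3 and 7.19 in IEC12 and 14.2, 12.1 and 6.28 in AOC. It was highest in IEC4, without overlap with either other stage, while AOC replicate C lay below IEC12 replicate C. It fell by 1.99 from IEC4 to IEC12 (SE 0.45, adjusted p = 0.00646), and by 1.39 without IEC12 replicate A (adjusted p = 0.00336). Its rise of 1.33 ± 0.45 from IEC2 to IEC4 (adjusted p = 0.0432) did not pass when any 1 of the 6 libraries was left out (adjusted p 0.0545 to 0.134). The difference of 1.38 ± 0.45 between AOC and IEC12 (adjusted p = 0.0205) became 0.78 without IEC12 replicate A (adjusted p = 0.0545), and it also did not pass without AOC replicate A (adjusted p = 0.0775) or replicate B (adjusted p = 0.0629). TNFRSF1A, the main TNF receptor, was at 0.893, 1.64 and 2.51 FPKM in IEC2, 2.55, 3.79 and 3.49 in IEC4, 0.389, 0.696 and 1.34 in IEC12 and 2, 1.6 and 0.912 in AOC. Only the fall of 1.27 from IEC4 to IEC12 (SE 0.27, adjusted p = 0.00529) passed the test.

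Of the 8 adaptors and ubiquitin ligases tested between stages, 1 was higher in IEC4 than in IEC2 and 2 were lower in IEC12 than in IEC4, against 24.8% and 26.9% of all genes. In AOC against IEC12, 4 of the 9 were higher and 1 was lower (22.4% and 36.2% of all genes). MALT1 entered the fit of the stages only through IEC4. Without it, none of 7 was higher in IEC4 than in IEC2 and 1 was lower in IEC12 than in IEC4. Without TICAM1, which entered the fit with AOC only with both IEC4 and AOC, 3 of 8 were higher and 1 was lower in AOC than in IEC12. MALT1, a protease that acts with BCL10 (chromosome 1, 162076933 to 162144915), stood at 0.758, 0.337 and 0.621 FPKM in IEC2, 3.07, 2.05 and 3.8 in IEC4, 0.814, 1.27 and 0.831 in IEC12 and 12.3, 12.6 and 12 in AOC. It was highest in AOC, followed by IEC4, and the AOC mean was 12.7 times that of IEC12. The log2 changes were 1.32 ± 0.21 from IEC2 to IEC4 (adjusted p = 0.00124), -0.99 ± 0.21 from IEC4 to IEC12 (adjusted p = 0.00511) and 2.76 ± 0.19 between IEC12 and AOC (adjusted p = 1.89e-07). BCL10, its partner, was measured at 6.75, 7.92 and 8.67 FPKM in IEC2, 6.26, 6.5 and 5.85 in IEC4, 7.51, 5.68 and 7.5 in IEC12 and 15.5, 14.2 and 16.4 in AOC. The 3 stages overlapped, and AOC was 1.06 ± 0.14 above IEC12 (adjusted p = 5.76e-05).

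TAB1, which activates the kinase TAK1, was at 2.06, 2.62 and 2.52 FPKM in IEC2, 0.54, 2.37 and 1.35 in IEC4, 0.117, 0.861 and 1.07 in IEC12 and 0.83, 0.897 and 0.448 in AOC. IEC12 lay below IEC2 by 1.06 on the log2 scale (SE 0.31, adjusted p = 0.0214), a difference that did not pass without IEC2 replicate B (adjusted p = 0.0642), IEC2 replicate C (adjusted p = 0.0611) or IEC12 replicate A (adjusted p = 0.0634). The TIR-domain adaptors of the Toll-like receptors differed in level. MYD88, used by most of these receptors, was between 5.23 and 17.8 FPKM in all libraries, and TICAM1, used by TLR3 and TLR4, did not exceed 2.11. MYD88 was 0.75 ± 0.26 higher in AOC than in IEC12 (adjusted p = 0.0286), a call lost without AOC replicate A (adjusted p = 0.1), AOC replicate B (0.0755) or IEC12 replicate A (0.0977). TICAM1, which entered the fit only with IEC4 and AOC, was 0.93 ± 0.22 higher in AOC than in IEC12 (adjusted p = 0.00367), and without the filter on low values it was higher in IEC4 than in IEC2 (1.04 ± 0.21, adjusted p = 0.0109) and lower in IEC12 than in IEC4 (-1.13 ± 0.21, adjusted p = 0.00714).

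TRAF6, the ubiquitin ligase downstream of Toll-like and IL-1 receptors, ranged from 5.94 to 8.56 FPKM in IEC2 and IEC4, from 3.89 to 5.65 in IEC12 and from 3.13 to 3.49 in AOC. It was lower in IEC12 than in IEC2 by 0.60 (SE 0.18, adjusted p = 0.0207) and lower in AOC than in IEC12 by 0.42 (SE 0.16, adjusted p = 0.0339), but the former did not pass in 4 and the latter in 5 of the 6 fits with 1 library left out (adjusted p up to 0.0737 and 0.125). TRAF5, an adaptor of TNF family receptors, fell by 0.95 from IEC4 to IEC12 (SE 0.24, adjusted p = 0.0111). TRADD, the adaptor of TNFRSF1A, and TAB2, a partner of TAB1, passed in no comparison, with ranges of 4.28 to 14.4 and 2.92 to 7.21 FPKM.

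Of the 6 kinases and scaffolds tested, 1 was lower in IEC4 than in IEC2 (12.5% of all genes), 1 was higher and 2 were lower in IEC12 than in IEC4 (17.3% and 26.9%), and 2 were higher and 1 was lower in AOC than in IEC12 (22.4% and 36.2%). The 1 called higher in IEC12 was CHUK, which entered the fits only through IEC12. Without CHUK, none of 5 was higher and 2 were lower in IEC12 than in IEC4, and the other counts of calls stayed the same. IRAK4, which acts directly below MYD88, was measured at 41.6, 27.9 and 29.4 FPKM in IEC2, 21.7, 21.5 and 23 in IEC4, 21.3, 20.2 and 19 in IEC12 and 68.2, 55.8 and 58.6 in AOC. IEC2 lay above both later stages, and AOC was 1.54 ± 0.15 above IEC12 (adjusted p = 3.35e-06). It was lower in IEC4 than in IEC2 by 0.54 (SE 0.16, adjusted p = 0.0263), by 0.36 without IEC2 replicate A (adjusted p = 0.078), and the call was also lost without IEC4 replicate A (adjusted p = 0.0707) or B (adjusted p = 0.0804). Its related kinase IRAK1 did not exceed 0.276 FPKM. MAP3K7, which encodes TAK1, went the opposite way and was measured at 12.8, 14.1 and 15.8 FPKM in IEC2, 11.7, 13.9 and 10.9 in IEC4, 14.8, 15.1 and 18 in IEC12 and 5.8, 8.08 and 6.91 in AOC. No change between stages passed, and AOC was below IEC12 by 1.10 (SE 0.15, adjusted p = 6.67e-05).

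The 3 subunits of the IKK complex were not alike. IKBKG, the regulatory subunit NEMO, was at 1.04, 2.59 and 3.33 FPKM in IEC2, 4.16, 2.28 and 3.26 in IEC4, 0.0896, 0.432 and 1.28 in IEC12 and 1.52, 1.55 and 0.908 in AOC. It fell by 1.45 from IEC4 to IEC12 (SE 0.35, adjusted p = 0.0084), and all IEC12 values lay below the IEC4 values. It was also lower in IEC12 than in IEC2 (-1.05 ± 0.35, adjusted p = 0.0335), although these groups overlapped and the call was lost in 4 of the 6 fits with 1 library left out (adjusted p up to 0.12). IKBKB, the catalytic subunit of the classical route, was measured at 3.15, 10.2 and 9.58 FPKM in IEC2, 8.91, 9.23 and 8.64 in IEC4, 1.69, 3.02 and 5.97 in IEC12 and 4.72, 4.9 and 3.12 in AOC. Its fall of 1.23 from IEC4 to IEC12 (SE 0.42, adjusted p = 0.0366) did not pass in 5 of the 6 fits with 1 library left out (adjusted p up to 0.108). CHUK, the other catalytic subunit, was at 0.351 to 0.853 FPKM in IEC2 and IEC4 and at 1.85, 1.23 and 1.23 in IEC12. It reached the minimum for testing only through IEC12, was higher there than in IEC4 (0.49 ± 0.18, adjusted p = 0.0463) and than in IEC2 (0.64 ± 0.18, adjusted p = 0.0162), and the former did not pass without any 1 IEC4 library (adjusted p 0.0608 to 0.128). The latter did not pass without IEC2 replicate A (adjusted p = 0.0513). ERC1, a scaffold of the IKK complex, was 0.57 ± 0.15 higher in AOC than in IEC12 (adjusted p = 0.00542).

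The NF-κB subunits were expressed at low levels, between 0 and 6.09 FPKM, and 3 of the 4 tested were lower in IEC12 than in IEC2 (19.3% of all genes). RELA, the subunit p65 (chromosome 2, 6594869 to 6602684), was at 2.42, 3.79 and 3.49 FPKM in IEC2, 3.94, 2.89 and 3.34 in IEC4, 0.6, 0.897 and 0.94 in IEC12 and 0.98, 1.01 and 0.992 in AOC. Days 2 and 4 overlapped, and every IEC12 value lay below them and below AOC. RELA fell by 1.27 from IEC4 to IEC12 (SE 0.20, adjusted p = 0.000896) and was lower in IEC12 than in IEC2 by 1.21 (SE 0.20, adjusted p = 0.000917). NFKB2, the precursor p100 of the alternative route, was measured at 1.34, 2.34 and 1.55 FPKM in IEC2, 1.03, 1.49 and 2.41 in IEC4, 0.103, 0.0427 and 0.407 in IEC12 and 0.331, 0.313 and 0.16 in AOC. It fell by 1.14 from IEC4 to IEC12 (SE 0.24, adjusted p = 0.00434) and was lower in IEC12 than in IEC2 by 1.21 (SE 0.24, adjusted p = 0.0029). For neither gene did AOC differ from IEC12 by the test (adjusted p = 0.483 for RELA and 0.682 for NFKB2). REL, a subunit best known from lymphocytes, was lower in IEC4 (-0.54 ± 0.19, adjusted p = 0.049) and in IEC12 (-0.55 ± 0.19, adjusted p = 0.0406) than in IEC2, calls lost in 5 and 4 of the 6 fits with 1 library left out (adjusted p up to 0.159 and 0.121). NFKB1, the precursor of p50, passed in no comparison and ranged from 2.68 to 6.09 FPKM, and RELB did not exceed 0.251.

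**Figure D4:**
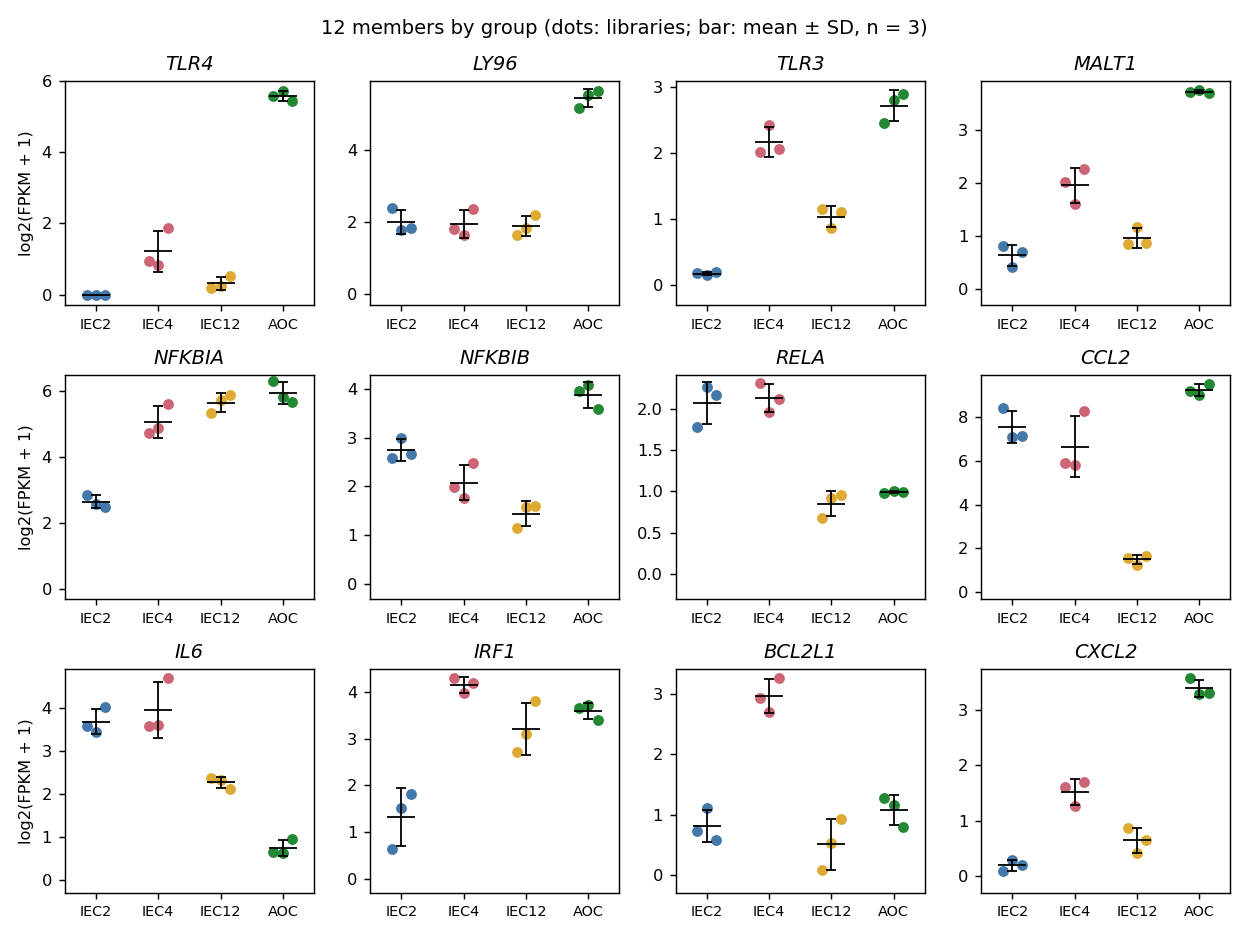
Levels of 12 members as log2(FPKM + 1) in the 4 groups, with 1 dot per library (A, B and C from left to right) and a bar for the mean ± SD of 3 libraries. NFKBIA rises from IEC2 to IEC4, NFKBIB and RELA have their lowest libraries in IEC12, IL6 has them in AOC, and TLR4, LY96, CCL2 and CXCL2 are highest in AOC.

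Of the 4 inhibitors, 1 was higher and 2 were lower in IEC12 than in IEC2 (24.2% and 19.3% of all genes). NFKBIA encodes IκBα, itself a target of NF-κB (ENSSSCG00000001952, chromosome 7, 64508119 to 64510754), and was measured at 6.28, 4.93 and 4.63 FPKM in IEC2, 25.4, 28.3 and 48.1 in IEC4, 39.4, 52.3 and 58.6 in IEC12 and 78, 56 and 50.1 in AOC. The IEC2 values lay below all others, and the other 3 groups overlapped. It rose by 2.43 ± 0.25 from IEC2 to IEC4 (adjusted p = 8.47e-05), and the IEC12 mean was 9.48 times that of IEC2 (log2 difference 3.01 ± 0.25, adjusted p = 1.73e-05). The steps from IEC4 to IEC12 (0.59 ± 0.25, adjusted p = 0.079) and from IEC12 to AOC (0.28 ± 0.25, adjusted p = 0.351) did not pass. NFKBIB, which encodes IκBβ (chromosome 6, 47703644 to 47712661), was at 4.95, 7 and 5.36 FPKM in IEC2, 2.97, 2.4 and 4.57 in IEC4, 1.23, 2 and 2.03 in IEC12 and 14.5, 15.9 and 10.9 in AOC. The 4 groups did not overlap. IEC12 was below IEC2 by 1.30 (SE 0.24, adjusted p = 0.0018), and AOC was above IEC12 by 2.42 ± 0.22 (adjusted p = 2.31e-06). The step from IEC2 to IEC4 was near the threshold (-0.67 ± 0.24, adjusted p = 0.0482) and was lost in 5 of the 6 fits with 1 library left out (adjusted p up to 0.169).

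NFKBIE, the gene of IκBε, varied widely within groups, from 1.04 to 12.2 FPKM in IEC12 alone and from 10.6 to 22 in IEC2 and IEC4. It was lower in IEC12 than in IEC2 (-1.72 ± 0.59, adjusted p = 0.038), but by 1.0 without IEC12 replicate A (adjusted p = 0.0731) and by 2.34 without IEC12 replicate C (adjusted p = 0.00514), and the call was also lost without IEC2 replicate B (adjusted p = 0.108), IEC2 replicate C (adjusted p = 0.112) or IEC12 replicate B (adjusted p = 0.0708). TNFAIP3, which encodes the deubiquitinase A20, passed in no comparison and ranged from 2.92 to 17 FPKM. Both ends of that range were IEC4 libraries, replicates B and C. The IEC12 libraries (14.6, 11.5 and 9.17) lay above those of IEC2 (6.7, 5.37 and 7.49) and AOC (6.23, 4.68 and 3.84). The test uses a spread shared by all groups of a fit, IEC4 included.

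All 7 targets and survival genes found were tested, and 3 were higher in IEC4 than in IEC2 (24.8% of all genes), 5 were lower and 1 was higher in IEC12 than in IEC4 (26.9% and 17.3%), and 2 were higher and 2 lower in AOC than in IEC12 (22.4% and 36.2%). CXCL2 and BCL2L1 entered the fit of the stages only through IEC4, and without them 1 of 5 was higher in IEC4 than in IEC2, and 3 were lower and 1 was higher in IEC12 than in IEC4. CCL2 changed most (ENSSSCG00000017723, chromosome 12, 40798109 to 40800013). It was measured at 335, 136 and 138 FPKM in IEC2, 58.6, 54.3 and 301 in IEC4, 1.97, 1.4 and 2.18 in IEC12 and 578, 504 and 719 in AOC. Days 2 and 4 overlapped, IEC12 lay below all other libraries, and AOC lay above them. CCL2 fell by 5.14 from IEC4 to IEC12 (SE 0.60, adjusted p = 0.00021), by 4.34 without IEC4 replicate C (adjusted p = 0.000176). The AOC mean was 325 times that of IEC12 (log2 difference 7.72 ± 0.55, adjusted p = 2.73e-07). CXCL2, a chemokine that attracts neutrophils, was at 0.0677, 0.23 and 0.146 FPKM in IEC2, 2.05, 1.39 and 2.26 in IEC4, 0.82, 0.335 and 0.568 in IEC12 and 10.9, 8.76 and 8.84 in AOC. The 4 groups did not overlap, and the order was that of TLR3. The log2 changes were 1.33 ± 0.19 from IEC2 to IEC4 (adjusted p = 0.000568), -0.88 ± 0.19 from IEC4 to IEC12 (adjusted p = 0.00479) and 2.74 ± 0.17 between IEC12 and AOC (adjusted p = 9.42e-08). CXCL2 belongs to a cluster of similar chemokine genes, among which the authors' assignment of reads could be uncertain.

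The cytokine gene IL6 (chromosome 9, 91506421 to 91510830) was lowest in AOC. It was measured at 11, 9.99 and 15.3 FPKM in IEC2, 11, 11.2 and 25.3 in IEC4, 4.16, 4.03 and 3.34 in IEC12 and 0.562, 0.549 and 0.928 in AOC. IL6 fell by 1.70 from IEC4 to IEC12 (SE 0.30, adjusted p = 0.00178) and was lower still in AOC (-1.53 ± 0.28 against IEC12, adjusted p = 0.000549), so that AOC lay below all 9 IEC libraries. IRF1, a transcription factor of the interferon response (chromosome 2, 134776122 to 134783646), was at 0.551, 1.85 and 2.53 FPKM in IEC2, 18.5, 14.6 and 17.3 in IEC4, 5.55, 7.62 and 13 in IEC12 and 11.6, 12.2 and 9.6 in AOC. It rose by 2.83 ± 0.34 from IEC2 to IEC4 (adjusted p = 0.00023) and remained 1.89 ± 0.34 above IEC2 in IEC12 (adjusted p = 0.00182). Its fall of 0.94 from IEC4 to IEC12 (SE 0.34, adjusted p = 0.0481) was lost in 5 of the 6 fits with 1 library left out (adjusted p up to 0.14) and with median-of-ratios scaling (-0.73, adjusted p = 0.0688).

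BCL2L1, an anti-apoptotic gene (chromosome 17, 35366139 to 35415798), peaked on day 4, at 0.659, 1.16 and 0.5 FPKM in IEC2, 6.64, 5.51 and 8.63 in IEC4, 0.0556, 0.434 and 0.904 in IEC12 and 1.42, 1.23 and 0.733 in AOC. The IEC4 libraries lay above all others. It rose by 2.16 ± 0.26 from IEC2 to IEC4 (adjusted p = 0.000222) and fell by 2.46 to IEC12 (SE 0.26, adjusted p = 0.000127). BIRC3, an inhibitor of apoptosis and ubiquitin ligase, was comparatively even at 9.08 to 16.7 FPKM. It was higher in IEC12 than in IEC4 (0.49 ± 0.17, adjusted p = 0.0457) and than in IEC2 (0.55 ± 0.17, adjusted p = 0.028), and lower in AOC than in IEC12 (-0.44 ± 0.16, adjusted p = 0.0323). Each of these calls was lost in 5 of the 6 fits with 1 library left out (adjusted p up to 0.136, 0.0854 and 0.117). With equal totals, BIRC3 did not pass from IEC4 to IEC12 (0.29, adjusted p = 0.274) or from IEC2 to IEC12 (0.29, adjusted p = 0.283), and with median-of-ratios scaling it did not pass in AOC against IEC12 (-0.18, adjusted p = 0.38). XIAP, another inhibitor of apoptosis, passed in no comparison and ranged from 2 to 5.64 FPKM.

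Other genes of the pathway were followed as separate lists, whose counts stand against the shares of all genes, higher and lower, of 24.8% and 12.5% in IEC4 against IEC2, 17.3% and 26.9% in IEC12 against IEC4, 24.2% and 19.3% in IEC12 against IEC2, and 22.4% and 36.2% in AOC against IEC12. Genes that reached the minimum for testing only through 1 group were not taken out of these lists. A count that holds such genes carries no weight of its own. Of 17 further targets found, 6 were higher and none was lower in IEC4 against IEC2 (11 tested), none was higher and 6 were lower in IEC12 against IEC4, 3 were higher and 3 lower in IEC12 against IEC2, and 8 were higher and 1 lower in AOC against IEC12 (13 tested). Their median log2 fold changes were 1.20, -0.85, -0.56 and 2.29, against 0.20, -0.15, 0.03 and -0.21 over all genes. Between stages, CXCL10 reached the minimum for testing only through IEC4 and IER3 only through IEC2. In AOC against IEC12, VCAM1 and CCL5 reached it only through AOC and CXCL10 only through IEC4. These counts and medians of the targets thus carry no weight of their own. The urokinase gene PLAU was at 3.73, 3.4 and 4.01 FPKM in IEC2, 40.6, 33.3 and 621 in IEC4, 0.235, 0.638 and 0.0464 in IEC12 and 87, 80.6 and 72.7 in AOC. The chemokine gene CXCL8 stood at 17.9, 4.51 and 9.44 FPKM in IEC2, 10.3, 9.19 and 13.4 in IEC4, 1.52, 0.484 and 0.439 in IEC12 and 110, 71.3 and 127 in AOC. Both were lowest in IEC12 and both were higher in AOC than in IEC12, PLAU by 5.98 ± 0.81 (adjusted p = 5.57e-05) and CXCL8 by 5.84 ± 0.39 (adjusted p = 1.65e-07). PLAU rose by 4.35 ± 0.89 from IEC2 to IEC4 (adjusted p = 0.00419), by 3.0 without IEC4 replicate C (adjusted p = 7.1e-05), by 4.96 without replicate A (adjusted p = 0.00624) and by 5.09 without replicate B (adjusted p = 0.00404). It fell by 6.23 from IEC4 to IEC12 (SE 0.89, adjusted p = 0.000617), by 4.88 without IEC4 replicate C (adjusted p = 1.85e-05), by 6.83 without replicate A (adjusted p = 0.00158) and by 6.97 without replicate B (adjusted p = 0.00106). CXCL8 fell by 2.76 over the same step (SE 0.41, adjusted p = 0.000752). The adhesion molecule gene ICAM1 was at 4.64, 5.34 and 7.81 FPKM in IEC2 and 14.5, 15.1 and 71.5 in IEC4 (1.95 ± 0.54, adjusted p = 0.0189), and its change was 1.22 without IEC4 replicate C (adjusted p = 0.0217) and did not pass without IEC2 replicate A (adjusted p = 0.0643) or B (adjusted p = 0.055). CXCL12, a chemokine of stromal cells, was higher in IEC12 than in IEC2 (2.03 ± 0.31, adjusted p = 0.000689) and lower in AOC than in IEC12 (-2.23 ± 0.28, adjusted p = 2.61e-05). The stress gene GADD45B rose by 1.72 ± 0.36 from IEC2 to IEC12 (adjusted p = 0.00397).

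Of 16 further receptors found, 6 were higher and none was lower in AOC against IEC12 (8 tested), 2 were higher and 1 lower in IEC4 against IEC2 (4 tested), none was higher and 1 was lower in IEC12 against IEC4, and 2 were higher and 2 lower in IEC12 against IEC2. In AOC against IEC12, TLR1, TLR10 and IFIH1 reached the minimum for testing only through AOC and NOD1 only with both IEC4 and AOC. Between stages, TNFRSF1B reached it only through IEC4 and IL18R1 only through IEC2. These counts thus carry no weight of their own. IL18R1, a receptor subunit for the cytokine IL-18, fell from 11.2, 11.5 and 9.62 FPKM in IEC2 to 0.598, 0.198 and 0.677 in IEC4 (-2.99 ± 0.18, adjusted p = 5.33e-06) and was at 0.343, 0.475 and 0.496 in IEC12 (-3.03 ± 0.18 against IEC2, adjusted p = 3.32e-06). IL18 itself fell by 1.07 from IEC2 to IEC4 (SE 0.20, adjusted p = 0.00266). TNFRSF12A, which encodes the TWEAK receptor, was at 610, 488 and 536 FPKM in IEC2 and 34.4, 83.4 and 113 in IEC12 (-2.96 ± 0.40, adjusted p = 0.000344). Of 7 ligands found, none was higher and 1 was lower in IEC4 against IEC2, none passed in IEC12 against IEC4, none was higher and 1 was lower in IEC12 against IEC2 (2 tested in each), and 1 was higher and 2 were lower in AOC against IEC12 (3 tested). Of 25 further adaptors and kinases found, 2 were higher and 1 lower, none higher and 4 lower, 2 higher and none lower (18 tested), and 8 higher and 2 lower (19 tested), in the same order of comparisons. PELI1, a ubiquitin ligase of the Toll-like receptor route, was lower in AOC than in IEC12 (-1.38 ± 0.18, adjusted p = 4.5e-05). Of 9 further inhibitors found, none passed in IEC4 against IEC2 (7 tested between stages). None was higher and 3 were lower in IEC12 against IEC4, and none was higher and 2 were lower in IEC12 against IEC2. In AOC against IEC12, 3 were higher and 1 was lower (8 tested). The counts of ligands, adaptors and inhibitors also hold genes that reached the minimum for testing only through 1 group. Among them, IL33, IRAK2 and SIGIRR reached it only through AOC in AOC against IEC12. Such counts carry no weight of their own.

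Some libraries stood apart within their group. IEC4 replicate C was the highest of its group for 21 of the 43 members (39.1% of all genes tested), among them CCL2, IL6, TNFAIP3 and CD14, and it also had the highest epithelial sum. IEC12 replicate A was the lowest of its group for 25 of the 43 members, near the share of all genes tested (55.4%). IEC2 replicate A was the lowest for 27 (49.2%), IEC4 replicate B for 21 (24.5%) and AOC replicate C for 25 (41.9%). IEC12 replicate C was the highest for 27 (47.4%). Whether these libraries differ in culture or in preparation was not tested.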

How the data were processed

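Smart-Seq2 amplified cDNA of 12 libraries was sequenced, and the authors deposited FPKM values, 1 for each gene of a library. The submitters' processing notes name Bowtie2 2.2.3, TopHat2 2.0.12, Cufflinks 2.2.1 and the genome build susScr11, and the annotation is not given in the sources used here. Gene symbols came from a table of Ensembl identifiers, and coordinates from RefSeq on Sscrofa11.1, matched by symbol. Libraries of undifferentiated and of CD31-sorted cells were not used here.

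Genes with at least 1 FPKM in at least 3 libraries of a fit were tested with limma (version 3.58.1, R 4.3.3) on log2(FPKM + 1), through lmFit, contrasts.fit and eBayes (trend = TRUE, so that the variance follows the mean). The 3 comparisons between stages used the 9 IEC libraries, and AOC against IEC12 used all 12. The test was tried on simulated data. Members and lists were chosen with earlier results of these data known. Values in every library are given for members with an adjusted p under 0.05, an absolute log2 fold change above 1 and groups that do not overlap in some comparison (24 members), and for other pathway genes the 2 largest changes in each direction are named. PLAU, CXCL8, IL18R1, ICAM1, IL18, TNFRSF12A, CXCL12, GADD45B and PELI1 were named in this way. Alternatives were another pseudocount, no filter, fits of 2 groups, a replicate block, 2 scalings, a variance not tied to expression, stricter limits and each replicate left out. Tables and plots used Python 3.11.15, pandas 2.3.3 and matplotlib 3.10.9.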

Additional observations from a re-analysis of the deposited data

How the results depend on the processing

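The number of members past the test depended on the limits for a call and on single libraries. With an absolute log2 fold change above 1 added, 11 members passed in IEC12 against IEC4 and 11 in IEC12 against IEC2, in place of 17 and 17. With a fold change beyond 3 on the log2 scale and both p-values under 0.001, 0 members passed in IEC4 against IEC2, 1 in IEC12 against IEC4, 2 in IEC12 against IEC2 and 3 in AOC against IEC12. With each replicate left out in turn, 5 to 10 members passed in IEC4 against IEC2, 13 to 16 in IEC12 against IEC4, 11 to 18 in IEC12 against IEC2 and 14 to 20 in AOC against IEC12. The other alternatives kept each count within 1.5 times. With the replicate letter as a replicate block, 10, 16, 17 and 18 members passed in the same order, and libraries of the same letter did not deviate together in every pair (correlations from -0.514 to 0.246), so the letters were not taken as pairs. Of 991 values of 78 changes that passed, 866 kept direction and threshold, 125 missed the threshold, in 21 of the changes, and 0 reversed. Alternatives in which a gene no longer reached the minimum for testing gave no value and are not among the 991. With 1 replicate left out, CXCL2 and CHUK between stages had values in only 3 of 6 fits. The same held for IL18R1 between stages and CD40 in AOC against IEC12. The causes were not tested.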
